A study of Mus musculus with 6 samples.

Results

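Homologous recombination and Fanconi repair genes were followed as a set of 42 named genes, matched by symbol to the Ensembl identifiers of 53700 gene rows. All 42 were found, and 41 had enough counts to be tested among 16473 genes. Fancf, with 6 to 12 counts in each library, was not. The samples were 6 polyA RNA-seq libraries of mouse germinal vesicle (GV) oocytes on a C57BL/6N background, each made from 10 oocytes. The labels give 3 libraries as wild type (Zar +/+) and 3 as Zar1 knockout (Zar -/-), with no treatment. Neither the animals' age nor the deleted part of Zar1 is given in the sources used here, and the labels call the pools biological replicates without saying whether they came from separate animals. The p-values reflect how much these pools varied. The study concerns how oocytes store mRNA around mitochondria, and ZAR1 is an oocyte RNA-binding protein. The comparison asks which repair mRNAs differ in measured level when it is missing. Levels are relative to the rest of each library, so a change in total mRNA per oocyte would not show. Whether poly(A) tail length altered capture in these polyA libraries was not tested.

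Homologous recombination repairs breaks of both DNA strands by copying an intact homologous sequence. Resection enzymes expose a strand, BRCA1, PALB2 and BRCA2 prepare it for strand exchange, XRCC2, XRCC3 and RAD54 help it to invade the template, and nucleases or helicases undo the joined molecules. The Fanconi anaemia pathway acts on crosslinks between the strands: a core complex attaches ubiquitin to FANCI and FANCD2, which brings in nucleases and recombination. Oocytes complete meiotic recombination before birth and then rest in prophase for long periods. They also store maternal mRNA.

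Zar1 itself read 379, 386 and 395 CPM (counts scaled to library size) in wild type but 1.98, 2.58 and 6.18 in the knockout, as labelled. Its paralog Zar1l rose from 126.5, 131.7 and 110.7 CPM to 191.9, 168.2 and 179.8 (log2 fold change 0.55 ± 0.09). The 15 oocyte markers summed to between 22860 and 24320 CPM in wild type and between 24570 and 26520 in knockout. Of them 8 rose (53.3%) and 2 fell (13.3%), beside 14.9% and 18.5% of all genes tested. Those with the smallest p were Nobox (log2 fold change 1.41), Zp3 (0.61), Zp2 (0.57) and Figla (0.91). The 14 granulosa and cumulus cell markers summed to 108.9, 112.1 and 119.2 CPM in wild type and to 134.5, 137.5 and 130.5 in knockout, most of it from Cyp19a1 and Nr5a2. None of the 14 was at 0 in every library. Cyp19a1 had 1300 to 1899 counts, Nr5a2 1749 to 2940 and Cyp11a1 38 to 224, whereas Amh, Foxl2, Fshr and Gatm, with at most 47 counts in any library, were too low to be tested. Of the 10 tested, 2 rose (Nr5a2, 0.59, and Has2, 1.40) while Kitl fell (-2.33), shares of 20% and 10%. Of 8 blood and immune markers, 4 were at 0 throughout and the sum reached at most 2.36 CPM. The part of these cell types in the results below was not tested. The biological coefficient of variation was 17.4% in wild type and 24.6% in knockout. In pools of oocytes, fewer transcripts per cell and fewer cells that carry them cannot be told apart.

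In the knockout, 12 of the 41 tested repair genes fell, 3 rose and 26 did not pass the test (edgeR, adjusted p of 0.05 over all genes). Over all genes tested 18.5% fell, 14.9% rose and 33.4% changed in either direction, against 29.3%, 7.32% and 36.6% of the repair genes. The total share of genes called was therefore near that of the whole table. That table also holds non-coding genes, whereas every member is protein-coding. Of 12940 protein-coding genes tested 2634 fell and 2198 rose. The median wild-type level was 33.4 CPM in the tested members and 15.5 in the protein-coding genes. The median log2 fold change of the repair genes was -0.13, beside 0.01 over all genes tested, and 56.1% of the repair genes and 49.5% of all genes had a negative value. The libraries of the 2 genotypes did not overlap in 23 of the 41 repair genes, 15 lower and 8 higher in the knockout, where the background was 47.8% (25.5% lower and 22.2% higher). The balance between falls and rises moved with a correction for GC content and length, applied together. After each library's trends over transcript GC content and length were removed, 7 members fell and 6 rose with a median of 0.05, beside 15.9% and 16% of all genes, and 10 of the 15 genes called without that correction were still called.

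The largest losses were in Xrcc2 and Slx4ip, which were left at 21.8% and 23.4% of their wild-type level. With Bard1, at 49.7%, they were the only members that fell more than 2-fold, a size reached by 8.76% of all genes as a called decrease. Bard1 only just passed 2-fold (log2 fold change -1.01), and with the GC and length correction it was at -0.85. Of the members that rose, Sycp3 reached 243% from a low level, Xrcc3 160% and Brca2 116%. Sycp3 alone rose more than 2-fold, a size reached by 4.15% of all genes as a called increase. Summed over all 42 genes, the wild-type level was 2827, 2853 and 2831 CPM and the knockout level 2383, 2436 and 2432, a mean difference of -420 CPM of which Msh6 alone made up -176. All knockout libraries lay below all wild-type libraries in this sum.

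**Figure D1:**
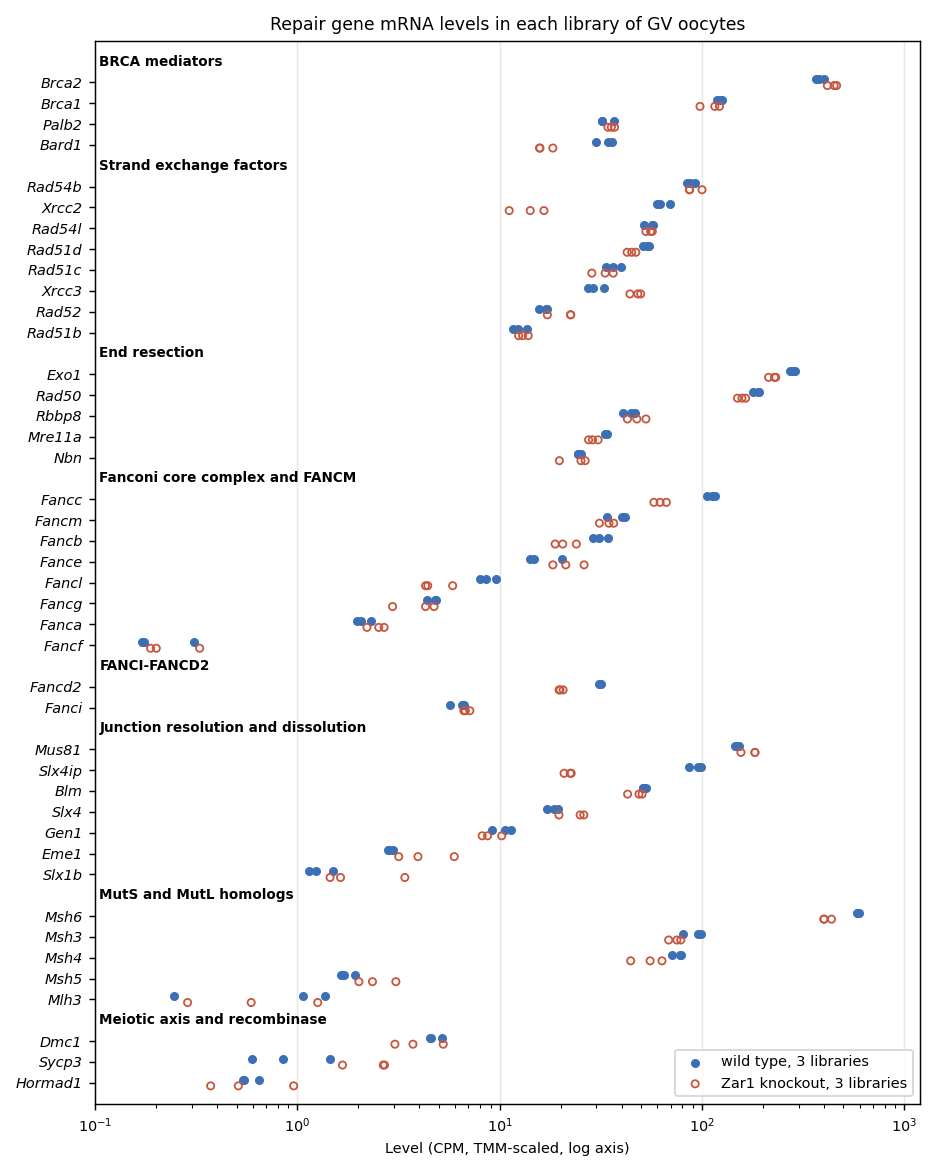
Level of each of the 42 repair genes in CPM on a log axis, grouped by role, with filled points for the 3 wild-type libraries and open points for the 3 Zar1 knockout libraries. Xrcc2 and Slx4ip in the knockout stand well clear of their wild-type points, Msh6 is the most abundant member, and Fancf, Mlh3 and Hormad1 lie near the bottom of the range.

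The 3' ends of the mRNAs are shown for the 4 members whose fall held under all 19 alternative settings tried (Slx4ip, Xrcc2, Bard1 and Fancc) and for the 3 that rose, because poly(A) tail control of stored oocyte mRNA works through elements there. Each is a 30-base window in the last 100 bases of the annotated 3' UTR, written 5′ to 3′ as DNA. Capitals mark a polyadenylation signal (AATAAA or ATTAAA) or a cytoplasmic polyadenylation element (TTTTAT or TTTTAAT), the site of CPEB1. Bard1 and Sycp3 also have a polyadenylation signal in the last 100 bases, outside the window shown.
Slx4ip: tgTTTTATgAATAAAcatgtgggttttgtg
Xrcc2: ttAATAAAgtggtttattaatacaatttaa
Bard1: atTTTTATtttttcctaatggatttaaact
Fancc: attcgtttgAATAAATAAAtacataaatgc
Xrcc3: ggaAATAAAactttatttttgtaacaaagt
Brca2: caTTTTATatacaaAATAAAcatagctttg
Sycp3: tgTTTTAATagttgttctctccacgattgt
On GRCm38, in GENCODE release M21, these windows lie at chr2:137071914-137071943 on the plus strand (Slx4ip), chr5:25689816-25689845 on the minus strand (Xrcc2), chr1:71027565-71027594 on the minus strand (Bard1) and chr13:63304712-63304741 on the minus strand (Fancc). Those of the genes that rose lie at chr12:111803193-111803222 on the minus strand (Xrcc3), chr5:150569707-150569736 on the plus strand (Brca2) and chr10:88473183-88473212 on the plus strand (Sycp3).

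A match is only a description of these letters. The cytoplasmic element was found in the last 100 bases of 8 of the 39 tested members whose 3' UTR was long enough, 20.5%, and in 19.7% of 12191 tested genes. Only the transcribed strand was searched, and the longer form can share letters with a polyadenylation signal, as it does in Fance. Among members that fell, 2 of 10 held it (Slx4ip and Bard1), and among those that rose 2 of 3 did (Brca2 and Sycp3), so the element stood on both sides. Over all genes, 24.1% of those that fell held it, 18.9% of those that rose and 18.5% of those that did not pass. A polyadenylation signal was present in 82.1% of the members and 81.6% of all genes. The median 3' UTR was 1004 bases in the 12 members that fell, 277 in the 3 that rose and 524 in the 26 that did not pass. Over all protein-coding genes the order was the same, with medians of 1532, 732 and 927 bases. Median transcript GC content was 45.84% in the members that fell, 42.38% in the 3 that rose and 46.04% in those that did not pass, whereas over all protein-coding genes it was 46.5% in those that fell, 51.7% in those that rose and 49.3% in those that did not pass.

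Per kilobase of exon, Msh6 was the most abundant member in wild type at 135 ± 1.63 CPM per kb (mean ± SD, n = 3). Mus81 followed at 41.8 ± 0.989, then Rad50 at 34.8 ± 1.22, Exo1 at 33.3 ± 0.902 and Brca2 at 27.9 ± 1.27. The ranges of Rad50 and Exo1 overlapped, although Rad50 was slightly higher within each wild-type library (33.35, 35.59 and 35.3 against 32.31, 33.6 and 34.05). The 7 lowest members were Sycp3, Slx1b, Hormad1, Msh5, Fanca, Fancf and Mlh3, whereas the meiotic gene Msh4 stood at rank 12. Sycp3, Hormad1, Msh5 and Mlh3 had 0.762 ± 0.347, 0.334 ± 0.0349, 0.317 ± 0.0285 and 0.118 ± 0.0765 CPM per kb, and the last of these lay within the spread of Fancf at 0.129 ± 0.0465. In the knockout Msh6 and Mus81 kept the top places, Slx4ip moved from rank 6 to rank 22 of the 42 genes and Xrcc2 from rank 11 to rank 28.

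Among the BRCA mediator genes, Bard1 fell and Brca2 rose slightly. Bard1, the RING partner of BRCA1 in its ubiquitin ligase, measured 35.97, 34.3 and 29.98 CPM with ZAR1 present and 15.7, 15.8 and 18.3 without it. The groups were far apart, with a log2 fold change of -1.01 ± 0.12 (SE, n = 3 each, adjusted p = 0.000418). Brca2, a mediator of strand exchange, measured 379, 399 and 365 CPM with ZAR1 present and 416, 462 and 450 without it. Every knockout library was higher, by a log2 fold change of 0.22 ± 0.07 (adjusted p = 0.043), but the call was lost on leaving out any of 5 of the 6 libraries (all but knockout replicate 1, adjusted p from 0.0569 to 0.184), with library sizes alone (0.0667) or with no filter on low counts (0.104). After the GC and length correction the rise was larger, at 0.47 ± 0.07 (adjusted p = 0.00137). Brca1 itself went from 122 ± 3.83 to 112 ± 12.5 CPM (mean ± SD, adjusted p = 0.316) and Palb2, the bridge between BRCA1 and BRCA2, from 33.5 ± 2.76 to 35.6 ± 1.34 (adjusted p = 0.555). Neither passed.

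Xrcc2 and Xrcc3 moved in opposite directions. XRCC2 joins RAD51B, RAD51C and RAD51D in one complex, and XRCC3 joins RAD51C in another. Xrcc2 measured 62.2, 69.5 and 59.9 CPM with ZAR1 present and 14.1, 11.1 and 16.5 without it. Every knockout library lay far below every wild-type library, and the log2 fold change was -2.20 ± 0.15 (adjusted p = 2.93e-05). Xrcc3 measured 32.6, 27.2 and 29.0 CPM with ZAR1 present and 44.0, 48.1 and 49.7 without it. All knockout libraries were higher, by a log2 fold change of 0.67 ± 0.11 (adjusted p = 0.00154). After the GC and length correction the rise was smaller, at 0.49 (adjusted p = 0.00722). The other subunits did not pass: Rad51b was 12.5 ± 1.01 and 13.1 ± 0.716 CPM, Rad51c 36.6 ± 3.07 and 32.7 ± 3.95, and Rad51d 53.0 ± 1.91 and 44.8 ± 2.23. For Rad51d the groups were apart (log2 fold change -0.24 ± 0.09, adjusted p = 0.0581), and it passed with library sizes alone (0.0353) or without knockout replicate 3 (0.0389).

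The RAD54 translocases, which remodel chromatin during strand exchange, showed no change past the test. Rad54l averaged 55.0 ± 2.92 CPM and, without ZAR1, 55.1 ± 2.07 (log2 fold change 0.00 ± 0.09), with 15.4% of its exon bases shared with Lrrc41 on the other strand, and Rad54b 87.8 ± 4.05 and 91.1 ± 7.64 (0.05 ± 0.09). Of the exon bases of Rad54b 35.9% are shared with Fsbp on the same strand, so its count is uncertain. Rad52, an annealing protein, was 16.6 ± 0.838 and 20.7 ± 3.01 CPM (0.32 ± 0.14, adjusted p = 0.117). It passed with GC and length offsets (0.48, adjusted p = 0.0305) and without knockout replicate 3 (0.43, adjusted p = 0.0242), and Rad54b passed only with that correction (0.25, adjusted p = 0.0495).

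Of 5 end resection genes 2 fell, both by little, beside 18.5% of all genes, and neither fall outlasted the GC and length correction. Exo1, the long-range exonuclease, measured 272, 283 and 287 CPM with ZAR1 present and 213, 228 and 231 without it, with no overlap (log2 fold change -0.32 ± 0.07, adjusted p = 0.00657). Rad50, the ATPase of the MRE11 complex that binds broken ends, had 179, 191 and 190 CPM and then 157, 150 and 164. It too was lower in every knockout library (-0.25 ± 0.07, adjusted p = 0.0254). With that correction Exo1 was at -0.16 (adjusted p = 0.0988) and Rad50 at -0.08 (0.403). The call of Rad50 was also lost under upper-quartile factors (adjusted p = 0.061) and on leaving out each library except wild-type replicate 1 and knockout replicate 3 (0.0748 to 0.0928). The nuclease gene Mre11a was 33.4 ± 0.323 and 28.9 ± 1.58 CPM (-0.21 ± 0.10, adjusted p = 0.134), with the groups apart. Nbn, the third subunit of that complex, was 24.7 ± 0.435 and 23.8 ± 3.58, and Rbbp8, which encodes the CtIP cofactor, 43.8 ± 3.13 and 47.7 ± 5.02. Rbbp8 passed as higher with the GC and length correction (0.38, adjusted p = 0.0328).

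Of 7 tested genes of the Fanconi core complex and its anchor FANCM, 3 fell and none rose, beside 18.5% and 14.9% of all genes. No role was tested as a set, and the genes are few. After the GC and length correction 2 falls, Fancc and Fancl, were still called. Fancc, a core subunit, measured 106, 116 and 112 CPM with ZAR1 present and 57.8, 66.6 and 62.0 without it. The lowest wild-type library was well above the highest knockout library (log2 fold change -0.84 ± 0.08, adjusted p = 0.000165, and -0.84 also after the correction). Of its exon bases 18.6% overlap antisense genes. Fancb, the X-linked subunit that pairs with FANCL, had 31.1, 28.8 and 34.2 CPM and then 18.8, 20.5 and 23.9 (-0.57 ± 0.13, adjusted p = 0.00893). Fancl, the ubiquitin ligase subunit, had 7.97, 9.62 and 8.57 CPM and then 4.30, 5.85 and 4.41 (-0.85 ± 0.19, adjusted p = 0.00907), and 13.7% of its exon bases overlap Vrk2 on the other strand. Both were lower in every knockout library, and Fancb narrowly missed the threshold after the correction (-0.38, adjusted p = 0.0522).

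The other core genes did not pass. Fance, the subunit that contacts FANCD2, averaged 16.5 ± 3.43 CPM with ZAR1 and 21.9 ± 3.95 without (log2 fold change 0.41 ± 0.19, adjusted p = 0.122). Fancg, an adaptor subunit, was 4.67 ± 0.258 and 3.99 ± 0.929, and Fanca, its partner, 2.11 ± 0.172 and 2.47 ± 0.243. Fancm, the helicase-like protein that brings the complex to DNA, was 38.6 ± 4.15 and 34.1 ± 2.796. Fancf, the untested adaptor, was 0.217 ± 0.0786 and 0.239 ± 0.0777.

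Of the pair that the core complex modifies, Fancd2 fell and Fanci did not pass. Fancd2 measured 31.8, 30.8 and 31.2 CPM with ZAR1 present and 20.6, 19.9 and 19.6 without it. Libraries of a genotype differed little from each other, and the log2 fold change was -0.64 ± 0.10 (adjusted p = 0.00147). After the GC and length correction the fall was smaller, at -0.47 (adjusted p = 0.00694). Fanci, which encodes the other subunit of the clamp, was 6.28 ± 0.551 and 6.84 ± 0.241 CPM (0.12 ± 0.16, adjusted p = 0.606). Of the exon bases of Fanci 15.95% overlap Polg on the other strand.

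**Figure D2:**
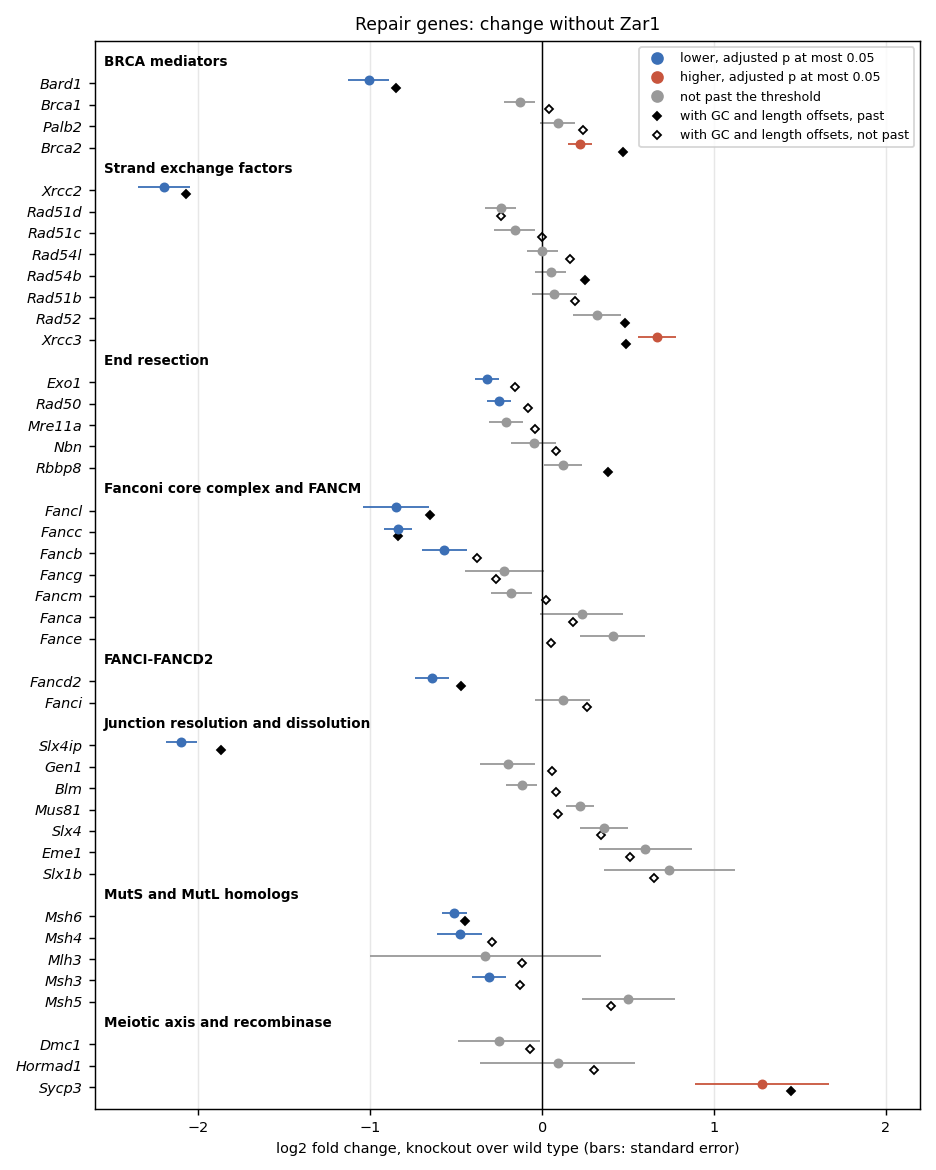
Log2 fold change of the 41 tested members, knockout over wild type, by role. Circles with standard error bars are the values without a correction, coloured by call, and diamonds are the values with GC and length offsets, filled where past the threshold. Xrcc2, Slx4ip and Bard1 stay far to the left in both, whereas the small falls of Rad50, Exo1 and Msh3 move toward 0.

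Genes that take apart joined DNA molecules mostly did not pass, apart from Slx4ip. SLX4IP binds SLX4, the scaffold of structure-specific nucleases. Slx4ip measured 99.3, 86.4 and 95.3 CPM with ZAR1 present and 22.3, 22.5 and 20.8 without it. The knockout libraries were nearly equal to each other and the log2 fold change was -2.10 ± 0.09 (adjusted p = 7.19e-06), the smallest p of the members. Slx4 was 18.3 ± 1.13 and 23.5 ± 3.43 CPM with the groups apart (0.36 ± 0.14, adjusted p = 0.075). It passed in DESeq2 (adjusted p = 0.0376) and without knockout replicate 1 (0.0279). Slx1b, the nuclease held by SLX4, was 1.29 ± 0.188 and 2.16 ± 1.07 CPM, with knockout replicate 3 highest at 3.39.

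Mus81, the catalytic subunit of another nuclease on the SLX4 scaffold, measured 150.9, 145.1 and 151.5 CPM with ZAR1 present and 182.5, 182.4 and 155.6 without it. The knockout libraries were all higher, but knockout replicate 3 was close to wild type, and the test was not passed (log2 fold change 0.22 ± 0.08, adjusted p = 0.0725). Mus81 passed without that library (0.29, adjusted p = 0.00948), under upper-quartile factors (0.27, 0.0315) and in DESeq2 (0.23, 0.0377). Its partner Eme1 was 2.87 ± 0.0941 and 4.35 ± 1.44 CPM (0.60 ± 0.27, adjusted p = 0.12), with a call only without knockout replicate 2 (0.79, adjusted p = 0.0484). Gen1, a Holliday junction resolvase, was 10.4 ± 1.12 and 9.04 ± 1.06, and Blm, the helicase that dissolves such junctions, was 51.6 ± 0.917 and 47.4 ± 4.01. Neither Gen1 nor Blm passed (adjusted p = 0.378 and 0.343).

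Of the 5 MutS and MutL genes 3 fell, beside 18.5% of all genes. Of these falls only that of Msh6 was also called with the GC and length correction. Msh6, which recognises base mismatches, measured 588, 596 and 582 CPM with ZAR1 present and 400.1, 400.4 and 436 without it. All knockout libraries were below all wild-type libraries (log2 fold change -0.51 ± 0.07, adjusted p = 0.000516). Msh3, which recognises loops, had 99.1, 80.4 and 95.0 CPM and then 78.5, 75.1 and 68.4. The gap between the groups was narrow (-0.31 ± 0.10, adjusted p = 0.0448), and the call was lost under upper-quartile factors (0.0828), with the correction (0.393) and on leaving out each library except wild-type replicate 2 (0.063 to 0.15). Msh4, a meiotic MutS homolog, had 70.6, 78.1 and 78.6 CPM and then 63.4, 55.4 and 44.4. All knockout libraries were lower (-0.48 ± 0.13, adjusted p = 0.0196), with the call lost without wild-type replicate 2 or 3 (0.0653 and 0.0697) and after the correction (-0.29, 0.12). Msh5, the partner of MSH4 on crossover intermediates, was 1.75 ± 0.157 and 2.48 ± 0.537 CPM (0.50 ± 0.27, adjusted p = 0.194). Mlh3, a subunit of a crossover nuclease, had 8 to 48 counts and did not pass (adjusted p = 0.747).

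Of the meiotic axis and recombinase genes, Sycp3 rose from a low level. Sycp3, a component of the synaptonemal complex axis, had 0.845, 0.596 and 1.45 CPM in wild type (34, 21 and 47 counts) and 2.69, 2.66 and 1.67 in knockout (94, 99 and 61 counts). The groups did not overlap, although wild-type replicate 3 and knockout replicate 3 were close (log2 fold change 1.28 ± 0.39, adjusted p = 0.0334). The call was lost on leaving out each library except replicate 3 of either genotype (adjusted p from 0.0811 to 0.106). Its count is uncertain, because 52.2% of its exon bases overlap Chpt1 on the other strand and the strand setting of the counting is not given. Hormad1, an axis protein that monitors synapsis, was 0.578 ± 0.0604 and 0.613 ± 0.306 CPM, and Dmc1, the meiotic recombinase, 4.75 ± 0.366 and 4.002 ± 1.14. Neither passed (adjusted p = 0.901 and 0.472). Of the exon bases of Slx1b, Eme1, Fanca and Fancf, none of them called, 10.2%, 10.7%, 10.5% and 14.96% likewise lie antisense to other genes.

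Ratios of counts between partner subunits do not depend on the scaling between libraries, and 6 such pairs were compared. The ratio of Brca1 to Bard1 was 3.42, 3.45 and 4.20 in wild type and 7.35, 7.71 and 5.34 in knockout, a shift of 0.87 in log2. Fanci to Fancd2 went from 0.205, 0.183 and 0.214 to 0.329, 0.358 and 0.338, a shift of 0.77. Msh4 to Msh5 went from 41.8, 40.5 and 48.1 to 27.0, 27.5 and 14.5, a shift of -0.97, with only 53 to 112 counts of Msh5 in a library. In these 3 pairs the groups did not overlap, which gives the smallest p that 3 against 3 libraries allow by exact permutation, two-sided (p = 0.1, adjusted to 0.2 over the 6 pairs). The groups overlapped for Msh3 to Msh6 (shift 0.21, exact p = 0.3), Mus81 to Eme1 (-0.33, exact p = 0.4) and Rad50 to Mre11a (-0.04, exact p = 0.7). With 3 libraries a group this permutation test cannot pass a threshold of 0.05.

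**Figure D3:**
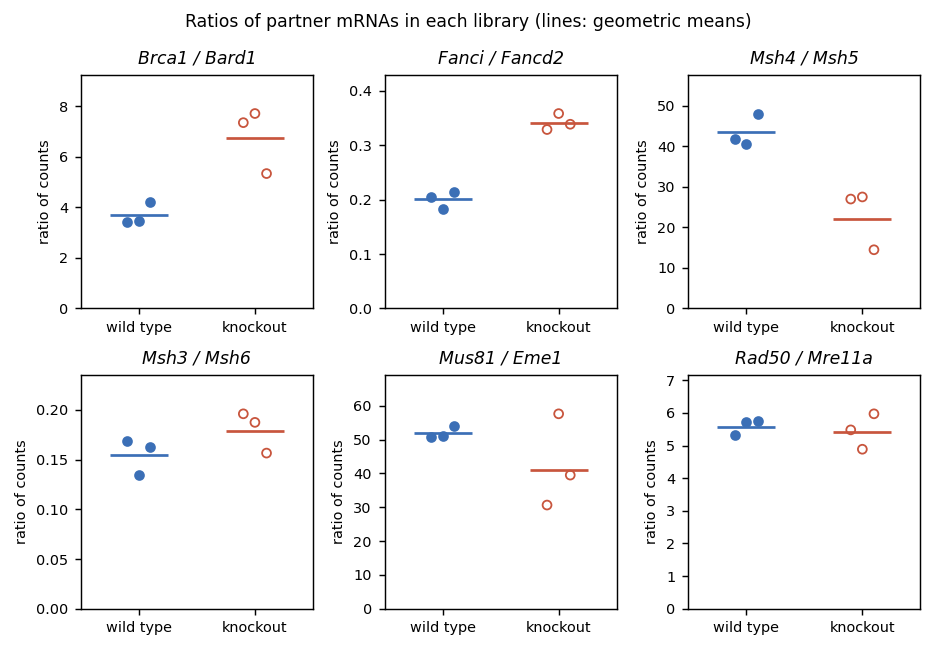
Ratio of the counts of 2 partner genes in each library, on linear axes from 0, with filled points for wild type, open points for knockout and a line at each group's geometric mean. Groups are apart for Brca1 to Bard1, Fanci to Fancd2 and Msh4 to Msh5 and overlap in the other 3 panels.

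In other lists of related genes 31.0% to 40% were called in either direction, beside 33.4% of all genes tested. Calls in each list were more often falls than rises. Over all genes 18.5% fell and 14.9% rose. Of 48 further homologous recombination and Fanconi genes 31.2% were called, 4 as higher (8.33%) and 11 as lower (22.9%). The other 33 were not, and the median log2 fold change was 0.02. In means ± SD of 3 libraries a group, Fignl1, an ATPase of recombination, fell from 23.5 ± 1.57 to 6.91 ± 0.535 CPM (log2 fold change -1.77). Rad51ap2 fell from 9.77 ± 2.05 to 2.81 ± 0.471 (-1.79). Usp1, which removes ubiquitin from FANCD2, fell from 122 ± 3.06 to 83.4 ± 2.38 (-0.55), whereas Uimc1, the ubiquitin-binding RAP80 subunit of a BRCA1 complex, rose from 32.2 ± 4.33 to 54.8 ± 3.81 (0.76).

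A further 10 mismatch repair and replication genes gave 1 rise (10%), 3 falls (30%) and 6 that did not pass, with a median of 0.11. Ssbp1, whose protein binds DNA in mitochondria, fell from 34.05 ± 6.61 to 11.7 ± 1.66 CPM, and the MutL homolog Pms1 from 26.7 ± 0.519 to 19.5 ± 2.52. Rfc1, of the clamp loader, fell from 75.1 ± 5.64 to 59.8 ± 5.09. The replicative ligase Lig1 rose from 25.7 ± 0.748 to 41.98 ± 11.98, a spread set by 54.6 CPM in knockout replicate 1 and 30.7 in knockout replicate 3.

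In the list of 36 other genes for meiotic recombination and the synaptonemal complex 29 were tested. Of these 3 rose (10.3%), 6 fell (20.7%) and 20 did not pass (median 0.15). Mei4, needed to form meiotic breaks, fell from 39.96 ± 4.16 to 7.91 ± 1.14 CPM. Its log2 fold change of -2.34 ± 0.15 (SE) was similar in size to that of Xrcc2 (-2.20 ± 0.15). Sycp1, the transverse filament gene, fell from 6.08 ± 0.821 to 1.81 ± 0.249 and Ythdc2, an RNA helicase of meiotic entry, from 16.4 ± 1.503 to 5.49 ± 1.59. Psmc3ip, a cofactor of DMC1, rose from 34.5 ± 2.21 to 53.4 ± 5.43.

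End joining, the route that competes with recombination for broken ends, had 1 of 19 genes higher (5.26%), 5 lower (26.3%) and 13 that did not pass (median -0.14). Trp53bp1, which restrains resection, fell from 114 ± 6.21 to 64.5 ± 7.77 CPM, the ligase Lig4 from 50.5 ± 1.47 to 26.5 ± 5.63 and the shieldin gene Shld2 from 54.9 ± 1.79 to 42.5 ± 2.07. Xrcc6, a Ku subunit, rose from 62.0 ± 2.61 to 79.7 ± 6.87. Adjusted p-values of the genes named from these lists reached at most 0.0304 (Rfc1), and no test compared the lists with each other.

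**Figure D4:**
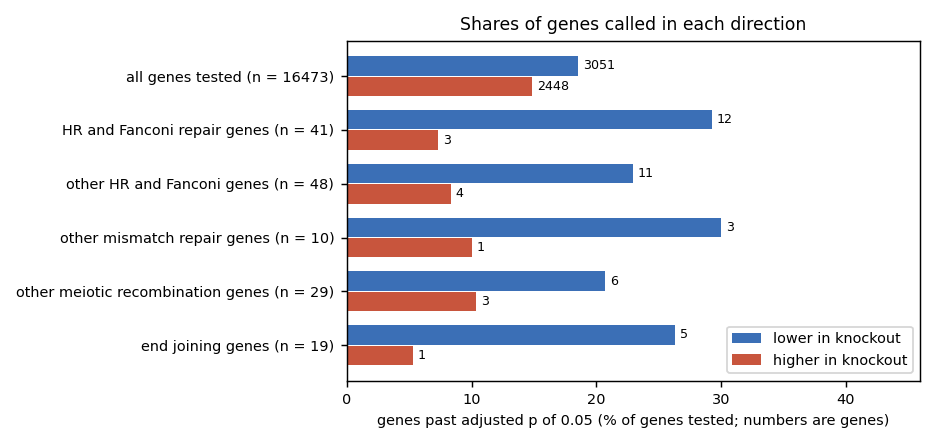
Percent of tested genes that fell (blue) or rose (red) in the knockout at an adjusted p of 0.05, for all genes, the repair genes and 4 other lists, with the number of genes at each bar. Falls took 29.3% of the repair genes and 18.5% of all genes.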

How the data were processed

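For each library the authors deposited a table of raw counts by gene. The submitters' processing notes name HTSeq 0.13.5, STAR 2.7.8a, cutadapt 2.8 and bcl2fastq 2.20.0.422, with build mm39. The annotation release and the strand setting (not given in the sources used here) are unknown, so counts of overlapping or antisense genes are uncertain. Rows that name no gene were left out (reads outside genes 4.84% to 5.70%, ambiguous 4.21% to 4.42%, multiply aligned 13.88% to 14.9% of a library). Gene counts summed to 32126555 to 39148833 per library, and libraries of a genotype differed by more than counting noise (chi-square over its degrees of freedom 13.8 to 45.3).

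All genes passing filterByExpr were fitted with edgeR 4.0.16 under R 4.3.3 by its two-sided quasi-likelihood test on genotype alone, with TMM factors and a threshold of 0.05 on the Benjamini-Hochberg adjusted p. Standard errors are the absolute log2 fold change over the square root of F. The steps were also run on counts simulated with the same variation for every gene. That is a simpler case than these data, so it does not measure error rates here. Levels are CPM. Symbols matched 52093 rows. Exon lengths, GC content, overlaps and 3' UTRs came from GENCODE M21 (GRCm38), not from mm39. Alternatives were other scaling factors and filters, DESeq2 1.42.0, limma-voom 3.58.1, a replicate block, GC and length offsets (covering 99.7% of tested genes), a stricter threshold, a 1.5-fold test and leaving out each library. Partner ratios used exact permutation tests.

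The members and all lists were chosen with earlier results of these data known. Every member is named, and those past the threshold or among the 5 most abundant in wild type by CPM are given in every library. Of each other list up to 4 called genes with the smallest p and a mean of at least 10 counts are named. Of 50 further recombination genes 48 were found, and of 20 end joining genes 19.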

Additional observations from a re-analysis of the deposited data

How the results depend on the processing

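Across 19 alternatives no called member changed direction. The falls of Slx4ip, Xrcc2, Bard1 and Fancc were called in all 19, and 10 of the 15 called members in all 6 fits that left out a library. Members that fell numbered 7 with GC and length offsets, 7 with these and the replicate block, and 4 when tested against a 1.5-fold change. Members that rose numbered 3 in the main test, 5 in DESeq2, 6 with GC and length offsets and 1 with the replicate block. At an adjusted p of 0.01 they numbered 1, and against a 1.5-fold change (edgeR) 0. In the main edgeR test 18 of 41 members had an unadjusted p of at most 0.05, in either direction. So did 7137 of all 16473 genes tested, a share near that of the members. Leaving out a library gave 9 to 12 falls and 1 to 4 rises, with 1 rise without wild-type replicate 1 or 2. Over all genes the counts moved too, from 2448 rises and 3051 falls in the main test. In DESeq2 2809 rose and 3139 fell, and with GC and length offsets 2633 and 2617. With the replicate block 2078 rose and 2760 fell, and with block and offsets 2281 and 2349. At 0.01 1171 of all genes rose and 1861 fell, and 417 and 1067 against a 1.5-fold change. Without a library 1541 to 2509 rose and 2285 to 3125 fell. No scaling moved the median of all genes by over 0.1. The members' median log2 fold change lay between -0.17 and 0.05 and was positive only with GC and length offsets. Labels number the replicates of both genotypes, but same-numbered libraries did not deviate together (r from -0.0420 to -0.00898), so the block pairs only numbers. It left 10 falls, and Brca2, Sycp3, Rad50 and Msh3 lost their calls (adjusted p = 0.068, 0.0626, 0.0557 and 0.0639). Low depth limits Mlh3, Hormad1, Sycp3 and Fancf, and also Slx1b, Msh5 and Fanca.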
